A study of Mus musculus with 14 samples.

Results

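The microRNA (miRNA) hairpins mir-210, mir-149 and mir-140 were followed in exosomes, the small vesicles that cells release, from macrophages of mouse fat. They are the rows mmu-mir-210, mmu-mir-149 and mmu-mir-140, 3 of the 539 hairpins in the authors' deposited table, which compares exosomes of obese and lean adipose tissue macrophages (ATMs). They were taken by name, and the names were chosen by their fold changes and adjusted p-values in this same comparison, so their differences are described here and not tested anew. The ATMs, defined as CD11b+F4/80+ cells, came from C57BL/6 mice, and the labels name no further allele, diet or treatment. Cells of both groups were cultured for 72 h in IMDM with 10% serum free of exosomes before the vesicles were spun out of the medium. There are 7 libraries labelled obese and 7 labelled lean. The age labels all begin at 24 weeks, and their upper ends run from 26 to 32 weeks in the obese group and from 33 to 39 weeks in the lean group. The upper end grows by 1 week from each sample to the next in order of listing, so whether the labels give true ages is uncertain. If those labels hold, age cannot be told apart from obesity in any value below. The labels do not say whether each library came from its own animal, so a p-value covers the spread between these libraries, which may be technical.

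A miRNA is cut from a hairpin-shaped precursor into short mature strands, named 5p and 3p after the arm they come from. Bases 2 to 8 of the strand, its seed, pair with messenger RNAs and lead to their repression. miR-210 is the miRNA most closely tied to low oxygen: hypoxia-inducible factors switch on its gene in many cell types, and the iron-sulfur scaffold Iscu is a well-known target. miR-140 is best known from cartilage, where it is abundant and limits matrix breakdown, and it is made from within Wwp2, the gene of a ubiquitin ligase. miR-149 lies in Gpc1, the gene of the cell-surface heparan sulfate proteoglycan glypican-1. Obese fat is known to contain poorly oxygenated regions, which is the setting in which miR-210 is of interest in this tissue.

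The 3 precursors are shown first because the deposited values belong to whole hairpins, so either strand of each could carry the reads. Capitals mark the mature strands that RefSeq lists (GRCm38.p6), and each sequence reads 5′ to 3′.
mir-210: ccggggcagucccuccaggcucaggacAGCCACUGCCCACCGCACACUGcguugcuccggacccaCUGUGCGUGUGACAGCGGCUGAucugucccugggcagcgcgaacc
mir-149: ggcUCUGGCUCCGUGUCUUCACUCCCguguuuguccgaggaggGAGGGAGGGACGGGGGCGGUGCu
mir-140: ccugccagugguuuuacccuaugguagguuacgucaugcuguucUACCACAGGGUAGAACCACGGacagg
For mir-140 the 3p strand alone is marked, and miR-140-5p is not described by sequence here. The precursors are 110, 66 and 70 bases long. No run of 20 bases in any of them recurs in another RefSeq mouse hairpin. Among 141767 GENCODE M21 transcripts, runs of 20 bases from mir-210 and mir-149 occurred in their own miRNA transcripts alone, and those from mir-140 also in Wwp2-206, a transcript of its host gene that retains the intron.

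The mature strands follow with the seed in capitals, because the seed decides which other miRNAs a strand could act with.
miR-210-5p: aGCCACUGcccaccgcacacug
miR-210-3p: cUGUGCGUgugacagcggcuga
miR-149-5p: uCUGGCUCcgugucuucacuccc
miR-149-3p: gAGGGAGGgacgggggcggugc
miR-140-3p: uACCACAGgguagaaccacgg
miR-1943-5p: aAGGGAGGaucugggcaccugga
miR-497b: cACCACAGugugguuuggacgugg
The 3 hairpins share no seed with one another. Among 1738 mature entries in the RefSeq table, both miR-210 strands and miR-149-5p had seeds of their own. The seed of miR-149-3p was also that of miR-1943-5p, printed above, and of miR-7016-5p and miR-6967-5p, while the seed of miR-140-3p was shared with miR-497b. The hairpins of miR-1943-5p and miR-497b have a row in the deposited table.

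The 3 genes lie on different chromosomes and none has another miRNA close by. GENCODE M21 (GRCm38) places mir-210 (ENSMUSG00000065551.1) at chr7:141221384-141221493 on the minus strand, in no annotated gene, 2.73 kb from Rassf7 and 7.29 kb from Phrf1. It places mir-149 (ENSMUSG00000065470.1) at chr1:92850378-92850443 on the plus strand, in intron 1 of the 9-exon Gpc1 transcript Gpc1-201. That intron is 21249 bases long, and the hairpin starts 18.7 kb from the start of Gpc1. It places mir-140 (ENSMUSG00000065439.1) at chr8:107551244-107551313 on the plus strand, in intron 16 of the 24-exon transcript Wwp2-201 and in the retained intron of Wwp2-206. The hairpin starts 115 kb from the start of Wwp2, in an intron of 2141 bases. The nearest other annotated miRNA gene was 399 kb from mir-210, 386 kb from mir-149 and 290 kb from mir-140. No hairpin of the table could therefore serve as a second reading of the same primary transcript at close range.

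All 3 hairpins had an adjusted p under 0.05 in the authors' deposited table, where 30 of 539 hairpins did (5.57%). All 3 were positive: over all rows 11 hairpins were called and positive (2.04%), and 19 were called and negative (3.53%). Since the hairpins were chosen with this outcome known, nothing is read from that count. The table does not name the group on top of its fold changes. A published study of these vesicles, which is outside knowledge, found miR-155 enriched on the obese side. The authors' deposited table has mir-155 at 4.41, so by that study a positive value would mean a higher level in the obese group. Directions below are given as positive or negative, on the side of mir-155 or against it. The table holds no value per library, so the spread within a group, any overlap of the groups and the total count of a library are unknown here.

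The hypoxia miRNA mir-210 had a log2 fold change of 2.64, a 6.25-fold difference, in the authors' deposited table. Its standard error, which follows from the fold change and the moderated t of the authors' deposited table, was 0.56. The 95% interval ran from 1.47 to 3.82 on the log2 scale, or from 2.77-fold to 14.1-fold. Per the authors' deposited table, limma's adjusted p was 0.00704, the 13th smallest p of 539. The interval lies wholly above a 2-fold difference, yet a direct test against a 2-fold minimum, adjusted over all hairpins, gave an adjusted p of 0.125.

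The glypican-gene hairpin mir-149 had the largest difference of the 3, a log2 fold change of 3.31 or 9.90-fold in the authors' deposited table. It also had the largest standard error, 0.74, and an interval from 1.75 to 4.87, or from 3.35-fold to 29.2-fold. In the authors' deposited table limma gave it an adjusted p of 0.0112. Tested against a 2-fold minimum, its adjusted p was 0.111.

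The cartilage-associated mir-140 had the smallest difference, a log2 fold change of 2.22 or 4.66-fold in the authors' deposited table. Its standard error was 0.59, and the 95% interval ran from 0.98 to 3.46, or from 1.98-fold to 11.0-fold. Its adjusted p of 0.0310 (limma, the authors' deposited table) was the one nearest to the threshold. At its standard error a log2 fold change of 2.08 was needed for a call, so it passed by 0.14, against 0.67 for mir-210 and 0.68 for mir-149. It was also the one of the 3 whose call was lost when all fold changes were recentred by 0.34, which is the median log2 fold change among the 180 hairpins of highest expression: it then stood at 1.88 (adjusted p = 0.0742), whereas mir-210 stood at 2.30 (0.0154) and mir-149 at 2.97 (0.0194).

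The authors' deposited table also gives B, the natural log of the odds that a hairpin differs, and it ranks the 3 the same way as their p-values. The authors' deposited table has B at 0.99 for mir-210, 0.42 for mir-149 and −1.07 for mir-140, which are odds of 2.68, 1.53 and 0.342. Odds under 1 for mir-140 go together with an adjusted p under 0.05, and 14 of the 30 called hairpins were in that position. The sources used here do not give the prior share of differing hairpins on which these odds rest.

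The 3 intervals overlap widely, from 1.75 to 3.46 for all of them at once. Whether the differences of mir-210, mir-149 and mir-140 were unequal was not tested, because the hairpins were read in the same libraries and the table does not say how their errors move together.

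**Figure D1:**
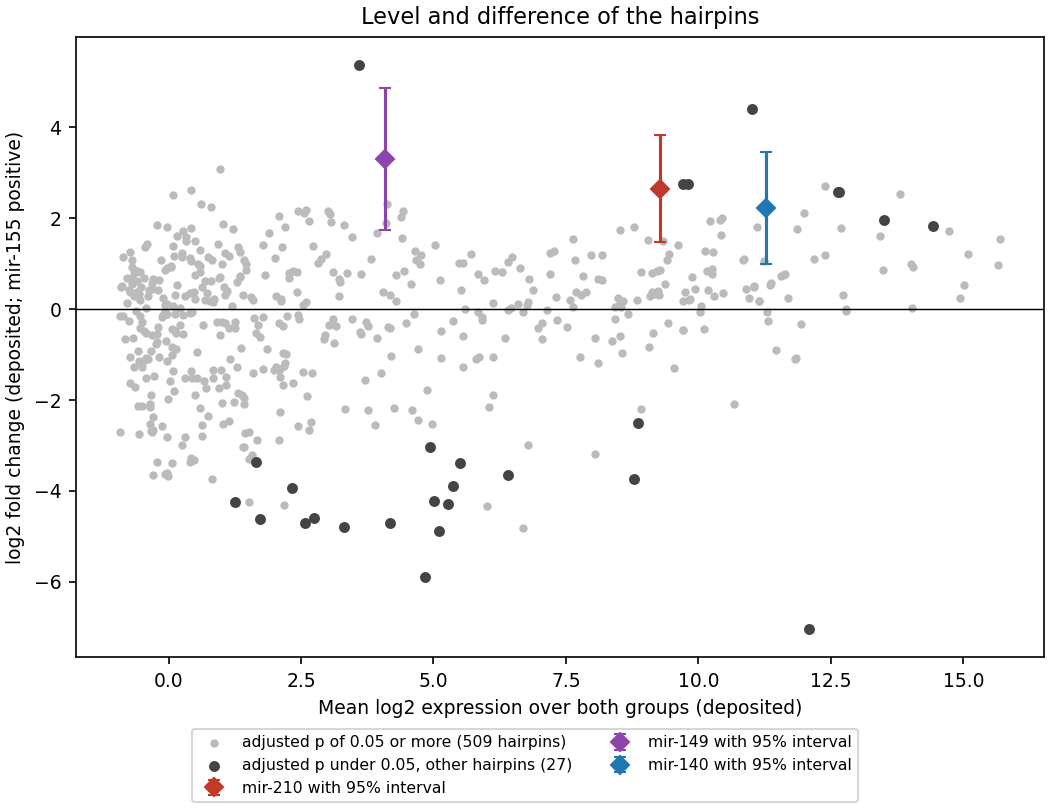
Each point is 1 of 539 hairpins, with its mean log2 expression over both groups on the x axis and its log2 fold change on the y axis, both from the authors' deposited table; dark points have an adjusted p under 0.05, and diamonds with bars are mir-210, mir-149 and mir-140 with their 95% intervals. The diamonds of mir-210 (9.27) and mir-140 (11.27) sit among abundant hairpins, while that of mir-149 (4.09) stands at a lower level with the widest bar of the 3.

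In level the 3 hairpins were spread over the upper part of the table. Averaged over both groups, the authors' deposited table puts mean log2 expression at 11.27 for mir-140, 9.27 for mir-210 and 4.09 for mir-149, in a range that runs from −0.92 to 15.69 with a median of 2.34. In order of abundance mir-140 was 39th, mir-210 was 84th and mir-149 was 213th. Whether the authors scaled levels by length is not stated, so levels of different hairpins are compared here only as ranks within the table. Levels of the separate groups were not computed, because B did not follow the absolute t alone (it fell in 239 of the 538 steps to the next larger t), so the errors of hairpins were scaled unequally and a fold change need not be the plain difference of 2 group means.

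Among the 11 positive called hairpins, mir-149 was the second least abundant. The other at a mean level under 5 was mir-1945, a little-studied hairpin, with 3.60 and a log2 fold change of 5.37 in the authors' deposited table. The 50 hairpins nearest to mir-149 in abundance, with mean log2 expression from 3.22 to 4.93, were split evenly by sign, with 25 positive, and had a median log2 fold change of 0.04. In that neighbourhood 1 hairpin was positive and called, and 4 were negative and called. The median standard error there was 0.98, and 3 of the 50 had a smaller one than the 0.74 of mir-149. Since mir-149 was chosen by its difference and adjusted p, nothing is read from its place among them.

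The surroundings of mir-210 and mir-140 leaned to the positive side. Of the 50 hairpins nearest to mir-210 (8.43 to 10.18), 35 were positive, with a median log2 fold change of 0.26, and 2 had a larger value than mir-210. Of the 50 nearest to mir-140 (9.89 to 12.69), 40 were positive, with a median of 0.72, and 4 had a larger value. As mir-210 and mir-140 were chosen by their differences, nothing is read from their ranks among these neighbours. The median over all 539 hairpins was 0.09, and 284 (52.7%) were positive. So the difference of mir-140 was 1 of many positive differences among abundant hairpins, and mir-149 lay in a range of levels without such a lean. How much the scaling between libraries contributes to that lean was not tested.

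For each hairpin, the 3 rows nearest in log2 fold change and mean expression were taken as the most alike, with each measure divided by its standard deviation over the table. The likeness rests on this 1 comparison. Nearest to mir-210 were mir-181b-1 and mir-181b-2, at 2.74 and 2.75 in the authors' deposited table, each with an adjusted p of 0.00142. The miR-181b copies are miRNAs of lymphocyte development that macrophages also make. After them came mir-29a, with a deposited log2 fold change of 2.0 (adjusted p = 0.0614; the authors' deposited table), a hairpin known for targeting collagen messages.

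The rows nearest to mir-149 lay farther from it, at distances of 0.61 to 0.75, against 0.12 to 0.48 for mir-210 and 0.18 to 0.26 for mir-140. By the authors' deposited table its nearest were mir-181c at 2.31 (adjusted p = 0.251), mir-1943 at 2.15 (0.212) and mir-1947 at 2.15 (0.139). None of the 3 passed the threshold, and their standard errors, 1.04, 0.92 and 0.81, were all above that of mir-149. As mir-149 was chosen by its adjusted p and these rows were matched on fold change, nothing is read from that. The hairpin mir-1943 is also the one whose 5p strand carries the seed of miR-149-3p. With 4.43 in the authors' deposited table, its mean log2 expression was close to that of mir-149, and its interval ran from 0.21 to 4.09.

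Nearest to mir-140 the authors' deposited table has mir-146a at 2.11 (adjusted p = 0.183), mir-29a at 2.0 and mir-148b at 1.96 (adjusted p = 0.196). The first is a feedback brake on Toll-like receptor signalling. Its fold change was near that of mir-140, but its standard error was 0.86 against 0.59. Choosing mir-140 by its adjusted p favours a small error, so nothing is read from that gap either. The seed partner mir-497b was at 0.84 (interval −0.94 to 2.63, adjusted p = 0.654) and had a mean log2 expression of 2.36, by the authors' deposited table.

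**Figure D2:**
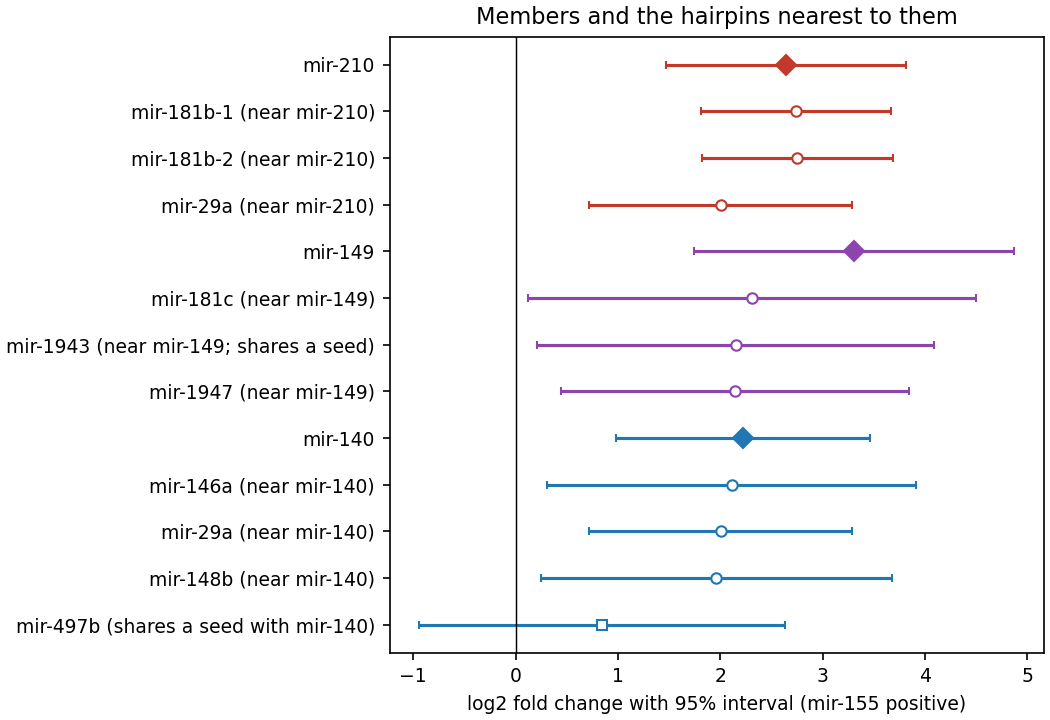
Log2 fold changes with 95% intervals for mir-210, mir-149 and mir-140 (filled diamonds), the 3 hairpins nearest to each in fold change and level (open circles) and mir-497b, which shares a seed with miR-140-3p (open square). The intervals of the members stay above 0.98, and those of the hairpins near mir-149 and mir-140 begin between 0.12 and 0.72. Those of mir-181b-1 and mir-181b-2, near mir-210, begin at 1.82, higher than the intervals of all 3 members. The members were chosen by their differences in this comparison, so nothing is read from these bounds.

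Base composition set mir-210 and mir-149 apart from mir-140. The precursors of mir-210 and mir-149 are 69.1% and 68.2% G or C, more than 96.1% and 94.7% of the 457 hairpins of the table that could be matched to a RefSeq sequence. That of mir-140 is 52.9% G or C, near the middle of the table. The miR-149-3p strand is 81.8% G or C, and miR-149-5p 60.9%. The 153 most GC-rich of the matched hairpins had a median log2 fold change of −0.55, against 0.30 in the 152 of middle composition and 0.35 in the 152 poorest in GC. Of the 9 called hairpins in the GC-rich set, 3 were positive: mir-149, mir-210 and mir-1945. The 6 negative ones were the 3 copies of mir-692, mir-682, mir-8098 and mir-5103. The middle set held 3 positive and 3 negative calls, and the GC-poor set 5 positive and 4 negative. Over all hairpins 2.04% were called and positive and 3.53% called and negative, and nothing is read from these counts. The GC-rich set was also the lowest in level. Its median of mean log2 expression was 1.60, against 2.26 in the middle set and 3.55 in the GC-poor set. Both mir-210, at 9.27, and mir-149, at 4.09, lay above that. So mir-210 and mir-149 were positive in a set whose median was negative, but whose hairpins were mostly less abundant. Both were chosen by their differences in this comparison, so nothing is read from that contrast. The parts of base composition and of level in the result were not tested.

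Other miRNAs that have been tied to low oxygen were next set beside mir-210. The list has 25 hairpins, mostly of the miR-23, miR-24, miR-26, miR-27, miR-103 and miR-181 groups, and 24 of them have a row. Positive log2 fold changes were found for 23 of 24, or 18 after recentring by 0.34. Their median was 0.79, and all 24 are among the 180 most abundant hairpins, whose median was 0.34. The list was drawn up with earlier results of these data known, and the share over all hairpins covers every level. Nothing is therefore read from its count of calls. Called were 5 of 24, all positive, against 2.04% of all hairpins. These are mir-155 and 4 hairpins of miR-181a or miR-181b, which stood between 2.57 and 2.75 in the authors' deposited table with adjusted p of 0.00142 to 0.00174. Copies can draw on the same reads, so those 4 may not be separate readings. Since mir-155 sets the sign of the table, the list was also read without it, with 22 of 23 positive and a median of 0.77. None of these called hairpins is known chiefly as a hypoxia miRNA as mir-210 is.

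The remaining 19 did not pass. Among them the authors' deposited table has mir-27a at 1.80 (adjusted p = 0.0740) and mir-27b at 1.21 (adjusted p = 0.168). The lowest was mir-20a, of the miR-17 family, with −0.32 in the authors' deposited table (adjusted p = 0.929). Close to 0 in the authors' deposited table lay mir-21a, at 0.24 (adjusted p = 0.948), and mir-23a, at 0.24 (0.890). After recentring by 0.34 both were at −0.10. All 19 were below the 1.47 at which the interval of mir-210 begins, except mir-27a. The called hairpins had been set aside and mir-210 was chosen by its difference, so nothing is read from that.

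Companions of miR-140 in cartilage and connective tissue make up the next list. Of its 10 hairpins 8 have a row. In limma's results of the authors' deposited table, 0 of 8 passed, and 0 of 8 had an unadjusted p under 0.05, against 95 of all 539 hairpins (17.6%); 7 were positive (4 after recentring by 0.34), and their median was 0.30. Over all hairpins 52.7% were positive. Highest in the authors' deposited table stood mir-455 with 1.94, a cartilage miRNA found within a collagen gene (adjusted p = 0.478). Per the authors' deposited table, the connective-tissue hairpins mir-199a-2 and mir-214 stood at 0.81 and −1.33, with adjusted p of 0.567 and 0.648. In level these 8 hairpins ran from 0.22 for mir-145a, of smooth muscle and stroma, to 9.94 for mir-10b (mean log2 expression, the authors' deposited table), all under the 11.27 of mir-140.

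Hairpins linked to fat browning and fat cell differentiation were compared because miR-149 and miR-140 have been studied there. Of 18 on the list 15 have a row, and 12 of these were positive, 11 after recentring by 0.34, with a median of 0.70. Over all hairpins 52.7% were positive, and 12 of the 15 are among the 180 most abundant, whose median was 0.34. The list held 1 positive and 1 negative call, against 2.04% and 3.53% of all hairpins, and nothing is read from these counts. Called were mir-155 on the positive side and mir-365-2 on the negative side, the latter of which the authors' deposited table puts at −3.75 (adjusted p = 0.0266). The other hairpin of the same miRNA, mir-365-1, had the opposite sign, with 0.98 in the authors' deposited table (adjusted p = 0.591; 0.64 after recentring by 0.34). Next by p was mir-27a, an inhibitor of fat cell formation, whose values are given above. The fat cell hairpins mir-193b and mir-378a stood at −0.56 and 0.02 (0.02 turns to −0.32 after recentring by 0.34) in the authors' deposited table, with adjusted p of 0.929 and 0.986.

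As hairpins inside protein-coding genes, mir-149 and mir-140 were also set beside 33 well-known intronic miRNAs with a row, of 35 on the list. GENCODE M21 places 29 of the 33 within a protein-coding gene on the same strand. Positive values numbered 25 of 33, or 20 after recentring by 0.34, and the median was 0.65. Over all hairpins 52.7% were positive, and 26 of the 33 are among the 180 most abundant, whose median was 0.34. Calls numbered 1 of 33, against 5.57% of all hairpins, and nothing is read from that count. The 1 called hairpin was mir-511, within the mannose receptor gene Mrc1, and it was negative, with −4.70 in the authors' deposited table (adjusted p = 0.0148). The second smallest p belonged to mir-106b, of the cell-cycle gene Mcm7, with 1.81 in the authors' deposited table (adjusted p = 0.0614). That was the highest log2 fold change of the 33, below the 2.22 of mir-140 and the 3.31 of mir-149. Since mir-140 and mir-149 were chosen by their differences in this comparison, nothing is read from that order. No messenger RNA was measured, so the levels of Gpc1 and Wwp2 are unknown here.

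**Figure D3:**
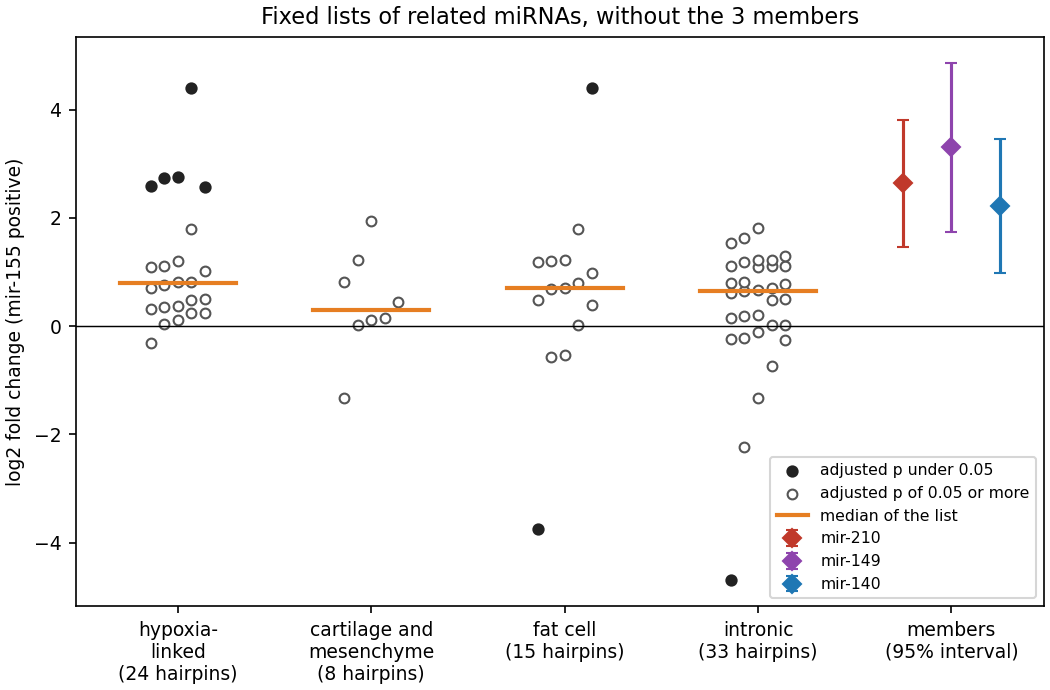
Log2 fold changes of 4 lists of related miRNAs, each point 1 hairpin, filled where the adjusted p is under 0.05, with the list's median as an orange bar; diamonds on the right are mir-210, mir-149 and mir-140 with 95% intervals. Medians of the lists lie between 0.30 and 0.79, and the called positive points are mir-155 and the miR-181a and miR-181b copies.

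Marker miRNAs of macrophages and of other cells were read as a check of the labelled cell type. For myeloid cells and leukocytes the list has mir-142a, mir-22 and mir-223, though whether mir-22 is particular to such cells was not examined. The authors' deposited table puts the mean log2 expression of these hairpins at 9.70, 15.02 and 7.62, all among the 180 most abundant hairpins. Markers of other cells had rows as well, with mean log2 expression from 0.22 to 6.59 for the 6 of cartilage and connective tissue, from 0.11 to 3.62 for the 7 epithelial ones, from 3.24 to 5.95 for the 4 lymphocyte ones, and 6.46 for the endothelial mir-126a. The 3 adipocyte markers mir-193b, mir-365-1 and mir-378a had 0.97, 4.75 and 14.04 (mean log2 expression, the authors' deposited table), so that mir-378a lay above mir-142a and mir-223. The muscle hairpin mir-133a-1 and the liver hairpin mir-122 had 2.27 and 2.15 there. The erythrocyte markers mir-451a and mir-486a had 6.76 and 11.81 (mean log2 expression, the authors' deposited table). In limma's results of the authors' deposited table, 0 of the 28 marker hairpins with a row passed, and 4 (14.3%) had an unadjusted p under 0.05, against 95 of all 539 hairpins (17.6%). These 4 were the lymphocyte marker mir-181c and the epithelial mir-429, mir-200c and mir-200b, all positive. The marker lists leave out called hairpins close to their members, namely those of miR-181a and miR-181b, and mir-365-2. They also leave out mir-155 and mir-511, both called, and the values of all these are given above. Nothing is therefore read from the count of 0 markers passing. Positive were 5 of 6 cartilage and connective tissue markers (3 after recentring by 0.34), with a range from −1.33 to 1.94, and 5 of 7 epithelial ones (4 after recentring), from −1.80 to 2.30. All 4 lymphocyte markers were positive, also after recentring by 0.34, with a median of 1.25 (0.91 recentred), and 2 of the 3 adipocyte markers were (1 after recentring), from −0.56 to 0.98. That range leaves out mir-365-2, the other hairpin of the miRNA of mir-365-1, which limma put at −3.75 (adjusted p = 0.0266). Its mean log2 expression of 8.78 was above the 4.75 of mir-365-1. The part of these other cell types in the values of mir-140 and mir-149, which such cells too can make, was not tested. In vesicle RNA, a change in the number of releasing cells of a type and a change in what each cell releases cannot be told apart.

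The calls of the 3 hairpins were set against other ways of reading the table. As deposited all 3 pass 0.05, and with Holm's adjustment, a stricter correction, none does: mir-210 has 0.0895, mir-149 0.164 and mir-140 0.732.

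**Figure D4:**
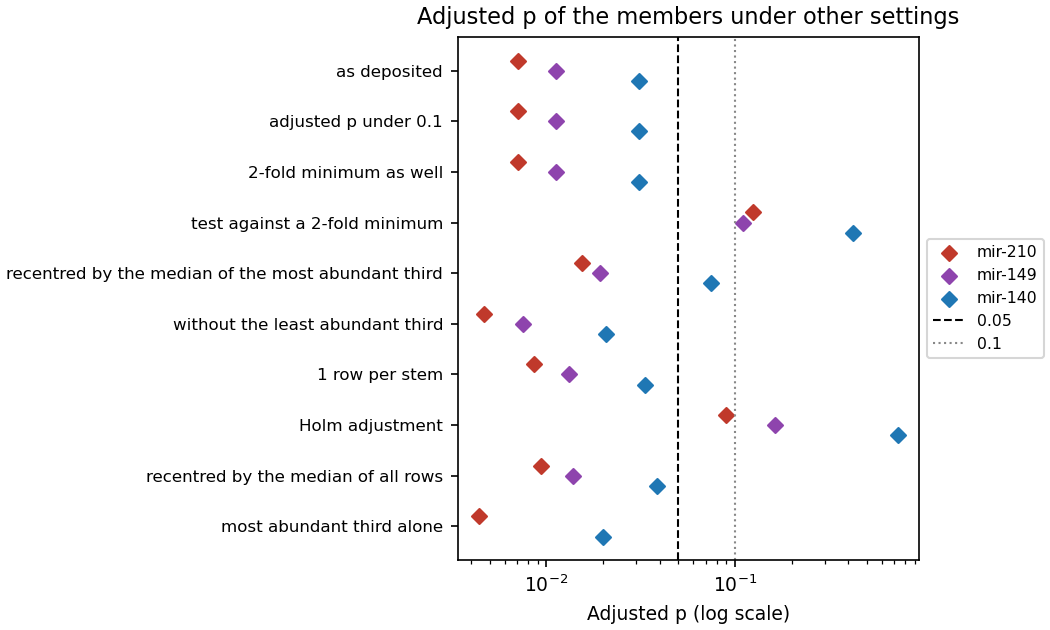
Adjusted p of mir-210, mir-149 and mir-140 on a log axis, as deposited and under 9 other settings for mir-210 and mir-140 and 8 for mir-149, which is not among the 180 most abundant hairpins, with dashed and dotted lines at 0.05 and 0.1. All 3 fall right of 0.05 with the test against a 2-fold minimum and with Holm's adjustment, and mir-140 also after recentring by 0.34.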

How the data were processed

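Small RNA of exosomes was sequenced from 14 libraries, 7 obese and 7 lean. Per the submitters' processing notes FastQC, MultiQC, Trimmomatic 0.30, Novoalign, edgeR and limma were used, with no role given; no genome build, miRNA annotation, normalization, filter, strand setting or rule for reads that match several hairpins is named (not given in the sources used here). One table of the authors' comparison was analysed, with 0 columns per library. Per the file headers, its fold changes and mean levels are log2 values. Its t is a score, limma's moderated t, per the file headers. Its p-values are deposited unadjusted and adjusted, and B is a natural log of odds, per the file headers.

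No model was fitted to libraries, as the planned limma fit needs values per library. Adjusting the deposited p by Benjamini-Hochberg over 539 rows returned the deposited adjusted p (largest difference 1.46e-14). Degrees of freedom of 17.9 were recovered from t and p. Dividing the log2 fold change by t gives the standard error, and intervals are 95% t intervals. The test against a 2-fold minimum uses the same errors, in the form of limma's treat. Depth per library is unknown, so no counting interval is given. The recovery steps were tested on simulated data (Python 3.11.15, scipy 1.17.1). Hairpins and lists were chosen with earlier results of these data known. Named are the 3 hairpins, mir-155, the 3 rows nearest to each, rows sharing a seed, and of each list the called members and the 2 of smallest p; mir-1945, mir-20a, mir-21a, mir-23a, mir-145a, mir-10b, mir-193b, mir-365-1, mir-378a, the markers and the negative GC-rich calls were named after their values were seen. The rows just inside and outside the threshold were mir-5103 (adjusted p = 0.0432) and mir-702 (0.0581). Sequences come from RefSeq (GRCm38.p6) and positions from GENCODE M21 (GRCm38).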

Additional observations from a re-analysis of the deposited data

How the results depend on the processing

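Tested against a 2-fold minimum, the adjusted p was 0.125 for mir-210, 0.111 for mir-149 and 0.420 for mir-140, so 0 of 3 were called, with 6 positive and 6 negative hairpins in all. With Holm's adjustment it was 0.0895, 0.164 and 0.732, again 0 of 3, with 6 positive and 5 negative. After recentring by 0.34, mir-140 was at 0.0742, and 8 positive and 25 negative hairpins were called, against 11 and 19 as deposited. At an adjusted p under 0.1, 19 were positive. Among the 180 most abundant hairpins alone, a setting chosen after seeing the data that leaves out mir-149, 10 were negative and 14 positive. Leaving out the 180 least abundant hairpins, taking 1 row per stem, asking for at least 2-fold as well, or recentring by the median of all hairpins (chosen after seeing the data) left all 3 called. No paired analysis was possible because every deposited value summarises both groups; leaving out single libraries was not run for the same reason.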
